A study of Homo sapiens with 24 samples.

Results

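The human control oligos are 10 sequences that were printed in many copies on expression arrays hybridised with RNA from HEK cells, a human embryonic kidney cell line. They were chosen by their identifiers alone: 9 begin with obshuman10K and 1 begins with obshumcontrol. Each sequence occupies 6 spots on every array that lists it, so the 10 sequences fill 60 spots per array. They are 10 of the 39423 sequences that these arrays carry, beside 39400 obshum40K probes printed singly and 13 plant control sequences. All 10 sequences passed into every analysis, because 0 of their 960 spots were listed as not detected.

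The study compared 4 treatments of HEK cells: 50 uM of a DNA minor groove binding ligand given 1 h before 2 Gy of radiation, 2 Gy of radiation alone, 50 uM of the ligand alone, and no treatment. RNA was taken 4 h after treatment, amplified and labelled with the single dye Cy3. Each treatment has replicate numbers, and each number has an array lettered A and an array lettered B, 24 arrays in all. The control oligos are listed on the 16 arrays of numbers 1 and 2, and the 8 arrays of number 3 enter no comparison here. Arrays A and B that share a treatment and a number were treated as 1 sample, which gives 8 samples, 2 per treatment. The labels name no compound for the ligand. They do not say what a number or a letter stands for, and none ties a number to a culture of its own. Every p-value below sets a difference between treatments against the spread between numbers 1 and 2 within treatments. Both the difference and the spread can therefore be technical. The fit does not pair samples by number unless the replicate block is named.

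Control oligos of this kind are spots of one fixed sequence that are repeated on a spotted slide. The copies share 1 sequence and meet the same labelled RNA, and which RNA binds them is not known here. Differences among the copies of a sequence on an array therefore measure printing, hybridisation and scanning. Differences between samples in the mean of the copies carry the RNA and its labelling as well. Ligands that lie in the minor groove of DNA bind mainly at stretches rich in adenine and thymine, and ionizing radiation breaks DNA strands and sets off a transcriptional response. The files pair none of the 10 identifiers with a gene, and 0 of them matched the gene table used here. The sequences are therefore described by identifier, no role can be given to any of them, and the HEK label could not be checked against marker genes.

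A level is the mean log2 intensity of the copies relative to the median obshum40K probe of the same array, averaged over letters A and B. A level of a sample thus rests on 12 spots per sequence. The median probe had an intensity of 248 to 677 on the A arrays and 179 to 531 on the B arrays, and the irradiated samples of number 2, with and without the ligand, were the dimmest on both letters. The brightness of a spot depends on its sequence as well as on its target, so levels of different sequences do not compare transcript amounts. In bulk RNA, a change in the share of cells that make a transcript and a change in its amount per cell cannot be told apart.

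The copies of a sequence did not read alike within an array. The SD over the 6 copies had a median of 0.461 log2 units and ranged between 0.146 and 1.33 over 160 combinations of sequence and array. The plant control sequences had a median copy SD of 0.677 over 208 combinations. Much of the spread among the human control copies belonged to the individual spot within a letter. A median of 74.5% of it, with a range of 24.3% to 94.1%, recurred at the same spot across the 8 arrays of a letter. For obshumcontrol#11009 on letter A, copy 1 was the dimmest on 8 of 8 arrays and averaged -1.77 log2 units against the mean of the copies. On letter B copy 2 of the same sequence was the dimmest on 8 of 8 arrays, at -0.82. For obshuman10K#11007 on letter A, copy 1 was the brightest on 8 of 8 arrays, at 0.86, and its 6 copies on the untreated array of number 1 had intensities of 1376, 778, 772, 880, 631 and 508.

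Once each spot's own mean was removed, the spread of a spot between arrays had a median SD of 0.287 log2 units. The deviation of a copy on letter A was only weakly related to that of the equally numbered copy on letter B, listed at the same place. The Pearson r was 0.215 across 60 copies, which share arrays of one layout and are not independent. The offsets thus belonged to spots of a letter more than to places shared by both letters. Centring each spot on the median probe of its own run of neighbouring spots left the copy SD at a median of 0.416. Copies of a sequence shared runs: those of obshuman10K#11004 were listed in runs 13 and 29 alone, on each letter. One sign at all 12 spots is therefore not agreement over 12 separate places. Because spots keep their offsets between arrays of a letter, a difference between 2 samples was also read spot by spot. Each of the 12 spots was set against the same spot in the other sample. After the mean offset of a sequence was removed, the A and B levels of a sample differed by a median of 0.16 and by up to 0.787, the widest being obshumcontrol#11009 in the radiation sample of number 1.

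The 10 sequences covered a wide range of brightness, and most were brighter than most probes. By mean level, 99.8% of probes lay below obshuman10K#11005, 93.8% below obshuman10K#11003 and 21.2% below obshuman10K#11001. The brightest, obshuman10K#11005, had a mean level of 5.68 over the 8 samples, 51.3 times the median probe. It had 5.25 and 5.56 with ligand and radiation (numbers 1 and 2), 5.88 and 5.47 with radiation, 6.57 and 5.18 with the ligand, and 6.29 and 5.25 untreated. The ligand and untreated samples of number 1 were the highest, and the treatments overlapped. On letter A, 4 of its 6 copies in the ligand sample of number 1 and 2 of its 6 copies in the untreated sample of number 1 lay above 65000, close to the 16-bit limit of 65535, so the values of those samples are bounded from above.

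The next brightest, obshuman10K#11006, had a mean level of 4.29. It had 4.88 and 4.38 with ligand and radiation, 4.64 and 4.42 with radiation, 4.48 and 2.77 with the ligand, and 5.62 and 3.11 untreated. The untreated sample of number 1 was the highest and the ligand and untreated samples of number 2 were the lowest, so the treatments overlapped. Its levels spanned 2.85 log2 units, the widest span of the 10 sequences.

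The dimmest sequence, obshuman10K#11001, lay below the median probe in all 8 samples, with a mean level of -0.52. It had -0.53 and -0.46 with ligand and radiation, -0.53 and -0.48 with radiation, -0.70 and -0.56 with the ligand, and -0.66 and -0.27 untreated. In the ligand sample of number 2 its dimmest copy on letter B read 57.5, and the copy SD there was 1.14. All 4 irradiated samples lay close together and inside the range of the unirradiated ones. Even so, its mean intensity was 7.00 to 18.9 times the median empty spot, depending on the array, and over all 10 sequences only 2 of 960 spots lay at or below the 95th percentile of the empty spots of their array.

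The second dimmest sequence, obshuman10K#11007, was also the steadiest. It had 0.03 and 0.20 with ligand and radiation, 0.01 and 0.12 with radiation, 0.03 and 0.23 with the ligand, and 0.18 and 0.25 untreated. These 8 levels spanned 0.23 log2 units, less than the median SD over copies. Both radiation samples lay below both untreated ones, and the other pairs of treatments overlapped.

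The other 6 sequences lay between these. By mean level they were obshumcontrol#11009 at 3.98, obshuman10K#11000 at 3.35, obshuman10K#11008 at 2.03, obshuman10K#11003 at 1.84, obshuman10K#11002 at 1.03 and obshuman10K#11004 at 0.45. Steadiness did not go by brightness alone. The SD between samples of one treatment was 1.30 for obshuman10K#11008 and 0.93 for obshuman10K#11003, against 0.19 for the brighter obshumcontrol#11009 and 0.21 for the dimmer obshuman10K#11004. Other bright sequences varied more than obshumcontrol#11009, with 0.64 for obshuman10K#11005, 1.09 for obshuman10K#11006 and 0.74 for obshuman10K#11000. It was 0.50 for obshuman10K#11002, 0.10 for obshuman10K#11007 and 0.15 for obshuman10K#11001.

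The untreated and the ligand sample of number 2 stood apart from the other 6 samples in the control sequences. Among those other 6 samples the order of the 10 levels was nearly identical, with Spearman correlations of 0.964 to 1. The untreated and ligand samples of number 2 correlated with them at 0.721 to 0.818 and with each other at 0.927. Each correlation is over the same 10 sequences on arrays of one layout and is given as a description. The split was not particular to the control sequences: over all obshum40K probes the same samples correlated with the other 6 at 0.660 to 0.746 and with each other at 0.925, and the other 6 correlated among themselves at 0.778 to 0.936.

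Within the control sequences, some stood out. In the ligand samples, 5 of 10 sequences differed by over 1 log2 unit between number 2 and number 1, against 16.3% of all 39295 rows of the table (all 10 control sequences and every probe measured on all arrays). In the untreated samples 5 of 10 sequences did, against 14.7% of rows. The sets differed in that obshuman10K#11000 was beyond 1 log2 unit with the ligand and obshuman10K#11002 untreated, while the other 4 were shared. With radiation alone 0 of 10 did, against 9.12% of rows, and with ligand and radiation 0 of 10, against 7.28%. The shares of rows and the ranks of p given here and below were not matched for brightness or for spots. A control row averages 12 spots, while a probe row rests on 1. Bright probes also shifted between these samples. On letter A untreated, the 95th percentile of probes lay 2.90 log2 units above the median probe in number 1 and 1.70 in number 2. With the ligand it lay 2.92 above in number 1 and 1.89 in number 2.

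For obshuman10K#11008 the level was 0.23 in number 2 and 2.56 in number 1 of the ligand samples, and 0.12 in number 2 and 2.94 in number 1 of the untreated samples. All 12 spots were lower in number 2 in both treatments. With radiation alone the same sequence had 2.61 in number 2 and 2.33 in number 1, and with ligand and radiation 2.81 in number 2 and 2.67 in number 1. The 2 unirradiated samples of number 2 were thus over 2 log2 units below the other 6 samples, which lay between 2.33 and 2.94.

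The sequences obshuman10K#11003 and obshuman10K#11000 went the other way. The level of obshuman10K#11003 was 3.57 in number 2 and 1.54 in number 1 of the ligand samples, and 3.20 in number 2 and 1.57 in number 1 of the untreated samples, with all 12 spots higher in number 2 each time. Its copies on letter A of the ligand samples read 6258, 6482, 9284, 7115, 8541 and 8841 in number 2, and 1820, 1539, 2199, 1624, 2357 and 2036 in number 1, where the median probes of the arrays were 582 and 651. Every copy of number 2 was brighter than every copy of number 1. For obshuman10K#11000 number 2 was higher than number 1 by 1.74 with the ligand and by 0.95 untreated, again at all 12 spots.

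Further sequences were lower in number 2 at all 12 spots in both treatments. The difference, number 2 minus number 1, was -1.71 with the ligand and -2.51 untreated for obshuman10K#11006, and -1.39 with the ligand and -1.04 untreated for obshuman10K#11005. The number 1 samples of obshuman10K#11005 hold the letter A copies close to the scan limit, so every difference of this sequence against them may read too small. On letter B, with no such copies, its level was 4.93 in number 2 and 6.60 in number 1 with the ligand, and 5.08 in number 2 and 6.22 in number 1 untreated. The level of obshuman10K#11002 differed between the numbers by -0.49 with the ligand and -1.13 untreated. The remaining 4 sequences differed by 0.43 or less either way. What sets the 2 samples apart was not tested, since the labels give nothing further about them, but every comparison below that has untreated or ligand samples on one side rests on them in part. For that reason each difference is given for number 1 and number 2 separately.

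Split over the design, 34.7% of the sum of squares of the 10 sequences about their means lay with radiation, 29.6% with the number, 27.3% with the number and radiation jointly, 4.36% with the ligand and radiation jointly and 1.07% with the ligand. Over all obshum40K probes the same shares were 16.7%, 37.7%, 19.6%, 7.33% and 6.68%. These shares describe 8 samples and carry no test. A shift shared by the untreated and ligand samples of number 2 enters the radiation, number and joint number and radiation shares alike. The share with radiation is therefore not a measure of radiation alone. For obshuman10K#11008 it was 27.7%, although the radiation difference against untreated was -0.61 in number 1 and 2.49 in number 2.

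Radiation alone against untreated cells asks what 2 Gy does to these signals. The clearest difference was that of obshumcontrol#11009. Its level was 3.51 and 3.10 in the radiation samples, against 4.50 and 4.66 in the untreated samples (numbers 1 and 2). Both radiation samples lay below both untreated ones.

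On letter B the 6 copies of obshumcontrol#11009 in number 2 read 1561, 963, 1560, 1965, 1741 and 2206 in the radiation sample, where the median probe was 179, and 17372, 6588, 10370, 15064, 11609 and 11310 in the untreated sample, where it was 531. Relative to the median probe, all 12 spots were lower in the radiation sample, in number 1 as in number 2. The difference was -0.99 in number 1 and -1.56 in number 2, with a mean of -1.28 (SE 0.24, limma unadjusted p 0.0014). After adjustment over all 39295 rows the limma p was 0.999971. In number 1 the letters differed in size, with -0.53 on letter A and -1.46 on letter B. After quantile normalization the difference was -0.60 in number 1 and -1.92 in number 2. With runs of spots centred it was -0.55 in number 1 and -1.40 in number 2. Its size in each number thus moved with the scaling, and its sign did not.

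In this comparison limma called 0 of 10 control sequences and 0 of 39295 rows (0%) at an adjusted p under 0.05. At an unadjusted p under 0.05 it had 1 of 10 sequences, against 952 rows (2.42%). Only 9 rows had a lower p than obshumcontrol#11009. After quantile normalization 0 of 10 sequences had an unadjusted limma p under 0.05, against 2.7% of rows.

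The widest mean difference with one sign in both numbers was that of obshuman10K#11003. Its level was 1.24 and 0.97 in the radiation samples, against 1.57 and 3.20 in the untreated samples. The groups did not overlap, but the untreated sample of number 2 stood far from the rest, and the difference was -0.33 in number 1 and -2.23 in number 2. The mean was -1.28 (SE 0.76, limma unadjusted p 0.142, adjusted p 0.999971), and it was -0.47 without the untreated sample of number 2 and -2.10 without that of number 1.

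Counted by number, the 10 sequences behaved differently. In number 1, 9 of 10 sequences were lower with radiation, against 52.5% of rows, and 0 of 10 were beyond 1 log2 unit, against 5.9% of rows. Their median difference was -0.54, against a median of -0.02 over all rows, and 9 of 10 were also lower after quantile normalization, with a median of -0.31. The median over all rows was not matched for brightness, and bright probes were lower with radiation as well. In number 1 the 95th percentile of probes lay 2.90 above the median probe untreated and 2.50 with radiation on letter A. On letter B it lay 2.39 and 2.24 above. In number 2, 6 of 10 were lower, against 51.5% of rows, with a median of -0.14. The 95th percentile of probes lay 1.70 above the median probe untreated and 2.07 with radiation on letter A of number 2. On letter B it lay 1.75 and 1.74 above. Of the 10 sequences, 5 were beyond 1 log2 unit in number 2, against 9.26% of rows. These were obshuman10K#11008 at 2.49, a ratio of 5.63 of radiation over untreated, obshuman10K#11006 at 1.31, obshuman10K#11000 at -1.18, obshumcontrol#11009 at -1.56 and obshuman10K#11003 at -2.23, a ratio of 0.213.

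One sign in both numbers was found for 5 of 10 sequences, against 49.3% of rows, a share near the background. All 5 were lower, against 26.6% of rows that were lower in both. For obshuman10K#11008 the difference was -0.61 in number 1, at 12 of 12 spots lower, and 2.49 in number 2, at 12 of 12 spots higher. For obshuman10K#11006 it was -0.98 in number 1 and 1.31 in number 2, again with all 12 spots on one side each time. The differences were thus repeated by every copy within a number and turned over between the numbers.

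Ligand and radiation against untreated cells gave a similar picture in which the same untreated samples serve as the comparison. For obshumcontrol#11009 the level was 3.57 and 3.47 with ligand and radiation, against 4.50 and 4.66 untreated. All 12 spots were lower in each number, by means of -0.93 in number 1 and -1.19 in number 2. The mean difference was -1.06 (SE 0.24, limma unadjusted p 0.00364, adjusted p 0.999936), and 18 rows had a lower p. After quantile normalization the difference was -0.50 in number 1 and -1.88 in number 2.

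The widest mean difference with one sign in both numbers was again that of obshuman10K#11003, with 1.42 and 1.18 with ligand and radiation, against 1.57 and 3.20 untreated. It was -0.15 in number 1 and -2.02 in number 2, with a mean of -1.08 (SE 0.76, limma unadjusted p 0.202, adjusted p 0.999936). Without the untreated sample of number 2 the mean was -0.27, and without that of number 1 it was -1.90. After quantile normalization the difference was 0.09 in number 1 and -2.60 in number 2, so the single sign did not hold under that scaling.

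In the same comparison limma called 0 of 10 sequences and 0 of 39295 rows (0%), and 1 of 10 had an unadjusted p under 0.05, against 2.02% of rows. Beyond 1 log2 unit lay 1 of 10 sequences in number 1, against 5.6% of rows, and 6 of 10 in number 2, against 10.2%. The 1 sequence in number 1 was obshuman10K#11005 at -1.04, and it had 0.31 in number 2. These values moved with the scaling: after quantile normalization they were -0.60 in each number, and 0 of 10 sequences were beyond 1 log2 unit in number 1. In number 2 the 3 higher ones were obshuman10K#11008 at 2.69, obshuman10K#11006 at 1.27 and obshuman10K#11002 at 1.08. One sign in both numbers was found for 1 sequence that was higher, obshuman10K#11002 at 0.42 and 1.08, and for 5 that were lower, against 20.4% and 29.8% of rows. After quantile normalization 0 of 10 sequences had an unadjusted limma p under 0.05, against 2.33% of rows.

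Ligand and radiation against the ligand alone asks what radiation does once the ligand is present. The level of obshuman10K#11002 was 1.96 and 1.49 with ligand and radiation, against 0.65 and 0.16 with the ligand. Both samples with ligand and radiation lay above both ligand samples, and the difference was 1.31 in number 1 and 1.33 in number 2, ratios of 2.48 and 2.51. All 12 spots were higher in each number. The mean difference of 1.32 had an SE of 0.43, a limma unadjusted p of 0.0216 and an adjusted p of 0.999991. Of all 39295 rows, 472 had a lower p. Without the ligand, the radiation difference of this sequence changed sign between the numbers. It was -0.76 in number 1, at 11 of 12 spots lower, and 0.84 in number 2, at 10 of 12 spots higher.

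The level of obshumcontrol#11009 was 3.57 and 3.47 with ligand and radiation, against 4.39 and 4.67 with the ligand. The groups did not overlap, and all 12 spots were lower in each number, by means of -0.82 in number 1 and -1.20 in number 2. The mean was -1.01 (SE 0.24, limma unadjusted p 0.00463, adjusted p 0.999991). The radiation difference of this sequence was thus measured against separate unirradiated samples, untreated and ligand, with one sign in each number. After quantile normalization its difference against the ligand was -0.37 in number 1 and -1.63 in number 2.

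The widest mean difference with one sign was that of obshuman10K#11008, at 2.67 and 2.81 with ligand and radiation, against 2.56 and 0.23 with the ligand. It came almost wholly from number 2, with 0.11 in number 1 and 2.58 in number 2 (mean 1.35, SE 1.05, limma unadjusted p 0.245, adjusted p 0.999991). Without the ligand sample of number 2 it was 0.18 and without that of number 1 it was 2.51.

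Here limma called 0 of 10 sequences and 0 of 39295 rows (0%), and 2 of 10 had an unadjusted p under 0.05, against 3.31% of rows. Beyond 1 log2 unit lay 2 of 10 in number 1, against 6.95% of rows, and 6 of 10 in number 2, against 11.2%. In number 1 these were obshuman10K#11002 at 1.31 and obshuman10K#11005 at -1.32, and in number 2 the widest were obshuman10K#11008 at 2.58 and obshuman10K#11003 at -2.39. After quantile normalization obshuman10K#11005 had -0.82 in number 1, where 1 of 10 sequences was then beyond 1 log2 unit. One sign in both numbers was found for 4 sequences that were higher and 2 that were lower, against 21.7% and 30.8% of rows. After quantile normalization 1 of 10 sequences had an unadjusted limma p under 0.05, against 2.66% of rows.

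The ligand alone against untreated cells gave small differences in most sequences. The median absolute difference of the 10 sequences was 0.22 in number 1 and 0.18 in number 2, against 0.16 and 0.14 over all rows. In number 1, 1 of 10 was beyond 1 log2 unit, against 2.23% of rows, and in number 2 it was 0 of 10, against 2% of rows. Limma called 0 of 10 sequences and 0 of 39295 rows (0%), and 0 of 10 had an unadjusted p under 0.05, against 0.27% of rows. One sign in both numbers was found for 5 sequences, all lower with the ligand, against 24.3% of rows that were lower in both. Of these 5, obshuman10K#11001 was higher at 7 of 12 spots in number 2. There its difference was 0.02 on letter A and -0.60 on letter B, where the lowest spot had -3.39.

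The widest of these was obshuman10K#11006, at 4.48 and 2.77 with the ligand, against 5.62 and 3.11 untreated. Each ligand sample was below the untreated sample of its number at all 12 spots, by means of -1.14 and -0.34, but the groups overlapped because both samples of number 2 were low. The mean was -0.74 (SE 0.89, limma unadjusted p 0.436, adjusted p 0.999997). It was 0.12 without the ligand sample of number 2 and 0.52 without the untreated sample of number 1, so its sign turned without either of these samples.

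For obshuman10K#11002 the levels were 0.65 and 0.16 with the ligand, against 1.54 and 0.41 untreated, and all 12 spots were lower in each number, by means of -0.88 and -0.25. The groups overlapped, and the mean difference of -0.57 had an SE of 0.43 and a limma unadjusted p of 0.236. For obshumcontrol#11009 the difference was -0.11 in number 1 and 0.01 in number 2.

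Ligand and radiation against radiation alone, the comparison that bears on the title of the series, also gave small differences. In each number 9 of 10 sequences were higher with the ligand, against 43.9% of rows in number 1 and 50% in number 2. The sequences were 8 of 10 with one sign in both numbers, all higher, against 25.3% of rows that were higher in both. These counts moved with the scaling: after quantile normalization 8 of 10 were higher in number 1 and 6 of 10 in number 2, and with runs of spots centred 6 of 10 and 8 of 10. The median difference of the 10 sequences was 0.12 in each number.

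The widest with one sign was obshuman10K#11002, at 1.96 and 1.49 with ligand and radiation, against 0.78 and 1.25 with radiation. Both samples with the ligand lay above both without it, by 1.18 in number 1, at 12 of 12 spots, and by 0.24 in number 2, at 11 of 12 spots. The mean was 0.71 (SE 0.43, limma unadjusted p 0.151, adjusted p 0.999958). The widest difference of the other sign was -0.63 for obshuman10K#11005 in number 1, at 12 of 12 spots, and it was 0.09 in number 2.

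In that comparison limma called 0 of 10 sequences and 0 of 39295 rows (0%), and 0 of 10 had an unadjusted p under 0.05, against 1.64% of rows. Beyond 1 log2 unit lay 1 of 10 in number 1, against 6.33% of rows, and 0 of 10 in number 2, against 3.4%.

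The interaction is the ligand difference with radiation minus the ligand difference without it. The widest with one sign in both numbers was that of obshuman10K#11002, at 2.07 in number 1 and 0.49 in number 2. In the presence of radiation its ligand difference was 0.71, and in the absence of radiation it was -0.57, which gives an interaction of 1.28 (SE 0.61, limma unadjusted p 0.0804, adjusted p 0.999985). Limma called 0 of 10 sequences and 0 of 39295 rows (0%), and 0 of 10 had an unadjusted p under 0.05, against 0.776% of rows. In 4 of 10 sequences the ligand difference had opposite signs with and without radiation in both numbers, against 18.5% of rows. Only 2 of these, obshuman10K#11002 and obshuman10K#11004, had them under each of 3 other scalings as well. The median interaction of the 10 sequences was 0.24, with a median SE of 0.69.

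Radiation averaged over the presence and absence of the ligand sets the 4 irradiated samples against the 4 unirradiated ones. For obshumcontrol#11009 the irradiated samples averaged 3.41 ± 0.21 and the unirradiated samples 4.56 ± 0.13 (SD, n = 4 each). The irradiated samples ranged up to 3.57 and the unirradiated ones began at 4.39, so they did not overlap. The difference was -1.14 (SE 0.17), with an unadjusted limma p of 0.000382 and an adjusted p of 0.939. Of all 39295 rows, 3 had a lower p. Radiation carried 93.3% of the sum of squares of this sequence, and the number carried 0.0208%.

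Of the 10 sequences, 2 did not overlap between irradiated and unirradiated samples, against 5.57% of rows. The other was obshuman10K#11003, with an average of 1.20 ± 0.19 in irradiated samples and 2.47 ± 1.07 in unirradiated samples (SD, n = 4 each). Its difference was -0.22 in number 1 and -2.31 in number 2, with a mean of -1.27 (SE 0.54, limma unadjusted p 0.0552, adjusted p 0.939). The 2 sequences thus had similar mean differences, with the irradiated samples close together in both. The unirradiated samples were close together for obshumcontrol#11009 and far apart for obshuman10K#11003.

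In this averaged comparison limma called 0 of 10 sequences and 0 of 39295 rows (0%), and 1 of 10 had an unadjusted p under 0.05, against 4.75% of rows. After quantile normalization 2 of 10 had such a limma p, against 4.53% of rows. A mean of the radiation differences also hid opposite signs: obshuman10K#11008 averaged 2.61 ± 0.20 in irradiated samples and 1.46 ± 1.49 in unirradiated samples, where the unirradiated samples of number 1 lay at 2.56 and 2.94 and those of number 2 at 0.23 and 0.12.

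The ligand averaged over the presence and absence of radiation gave 0 of 10 sequences that did not overlap between the 4 samples with and the 4 without the ligand, against 0.662% of rows. The widest difference with one sign in both numbers was -0.32 for obshuman10K#11006 (SE 0.63, limma unadjusted p 0.631, adjusted p 0.999983), with -0.44 in number 1 and -0.19 in number 2. It averaged 4.13 ± 0.93 with the ligand and 4.45 ± 1.03 without it (SD, n = 4 each). Limma called 0 of 10 sequences and 0 of 39295 rows (0%), and 0 of 10 had an unadjusted p under 0.05, against 0.611% of rows.

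In the fit without a block, the SE of a difference between 2 treatments had a median of 0.49 log2 units over the 10 control sequences, against 0.32 over all rows, although a control level rests on 12 spots and a probe level on 1. With the replicate block these medians were 0.38 and 0.23, and after quantile normalization 0.40 and 0.31. The SE was 0.20 for obshuman10K#11007 and 1.05 for obshuman10K#11008. For obshuman10K#11007 the 5 pairwise differences lay between -0.14 and 0.05, below that SE, and for obshuman10K#11001 they lay between -0.17 and 0.14, below an SE of 0.22.

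The remaining sequences can be given shortly. For obshuman10K#11000 the level was 2.96 and 3.21 with ligand and radiation, 2.49 and 3.07 with radiation, 2.87 and 4.61 with the ligand, and 3.31 and 4.26 untreated. All 4 irradiated samples lay below both untreated ones. The radiation samples were lower at all 12 spots of each number, by -0.82 in number 1 and -1.18 in number 2 (SE of the mean difference 0.61, limma unadjusted p 0.152, adjusted p 0.999971). With the ligand present the same comparison gave 0.09 in number 1 and -1.40 in number 2. For obshuman10K#11004 the level was 0.43 and 0.35 with ligand and radiation, 0.36 and 0.25 with radiation, 0.68 and 0.31 with the ligand, and 0.84 and 0.41 untreated. The 2 unirradiated samples of number 1 were the highest, both radiation samples lay below both untreated ones, and the ligand and untreated samples overlapped.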

How the data were processed

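Per the labels' protocols, TriReagent and RNeasy columns gave the RNA, which was amplified by T7 transcription and labelled with Cy3. The authors deposited linear spot intensities, 1 column per array per the file headers. For the scanner, the quantification and any scaling, methods were not given in the sources used here.

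From these intensities, log2 values of the 6 copies of a sequence were averaged per array after subtracting the median obshum40K probe of that array, and letters A and B were averaged. The control sequences and all probes measured on every array made a table of 39295 rows, with 115 incomplete probes left out. It was fitted with limma 3.58.1 (lmFit, then eBayes; R 4.3.3) over 8 samples in 4 treatments, without a block. The tests were two-sided, with Benjamini-Hochberg adjustment over all rows within each of 8 contrasts, and a row was called at an adjusted p under 0.05. Other values came from Python 3.11.15 with numpy 2.4.6 and pandas 2.3.3. The fit was tested on simulated data. The number of arrays limits the precision.

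Over the probes of all 3 numbers, the one use made of number 3, samples of one number deviated together from their treatment means (correlations of 0.273 or more on letter A and 0.128 or more on letter B, 18 pairs each), so the shared numbers in the titles were taken to pair the samples. The main fit left this pairing out, which widened its SEs, and the fit with the replicate block is given among the alternatives. With the block the lowest adjusted limma p of a control sequence was 0.457, for radiation averaged.

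The sequences and contrasts were chosen with earlier results of these data known. Each sequence is named with its mean level. By rule, values in every sample are given for the 2 brightest and 2 dimmest sequences and, per contrast, for the widest difference with one sign in both numbers. Others were chosen after their values were seen. Alternatives covered the replicate block, normalization, background, offset, copies, letters, runs of spots, the scan limit, dim probes, the groups fitted, robust eBayes and leaving out each sample. Leaving out copies near the scan limit was added after the data were seen. No sequence letters are given for the control oligos.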

Additional observations from a re-analysis of the deposited data

Results flagged for a closer look

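In 4 of the 10 control sequences the ligand difference had one sign with radiation and the opposite sign without it, in both numbers. The same holds for 18.5% of all rows. Of the 4 sequences, obshuman10K#11002 and obshuman10K#11004 kept these signs after quantile normalization, with runs of spots centred and with the empty spot subtracted, while obshuman10K#11001 lost them under each of the 3 and obshuman10K#11007 with runs of spots centred. The difference between the ligand differences was 1.28 for obshuman10K#11002 (limma unadjusted p 0.0804), 0.21 for obshuman10K#11004 (limma unadjusted p 0.559), 0.18 for obshuman10K#11001 (limma unadjusted p 0.578) and 0.13 for obshuman10K#11007 (limma unadjusted p 0.669). The adjusted limma p was 0.999985 for each of the 4, so none passed the test of the difference. With 2 samples per treatment, no sample could be tested for standing apart within its treatment.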

How the results depend on the processing

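Each of the 8 contrasts was refitted under up to 21 alternatives, 165 refits in all, and 0 of 10 control sequences were called in any of them. The 101 refits that kept all samples called 0 rows, among them those with the replicate block, which pairs samples by number (0 rows in each contrast). That fit changed no call, while the SEs and p-values of the Results come from the fit without a block unless a setting is named. With the block, 2 of 10 sequences had an unadjusted limma p under 0.05 for radiation against untreated, against 5.63% of rows. For radiation averaged 3 of 10 had one, against 10.5% of rows. The other contrasts kept their counts of sequences. Leaving out 1 sample called rows in 27 of 64 refits, which leave a treatment with a lone sample assumed to vary like the others. The number of rows called then ranged between 0 and 17 for ligand against untreated, 0 and 15 for radiation against untreated, 0 and 123 for ligand and radiation against untreated, 0 and 129 against radiation alone, 0 and 106 against the ligand alone, 0 and 5 for the interaction, 0 and 7 for the ligand averaged and 0 and 6 for radiation averaged. The highest counts for ligand and radiation came without its sample of number 1. The cause was not tested.

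For obshumcontrol#11009, radiation averaged lay between -1.27 and -1.01 over 20 alternatives, with adjusted limma p between 0.352 and 0.999997. Of 269 refits of 13 named differences 0 passed the threshold and 4 turned in sign, all for obshuman10K#11006. Without 1 sample its ligand difference ranged between -1.99 and 0.52 against untreated and between -0.94 and 0.31 when averaged. Both turned positive without the ligand sample of number 2 (0.12 and 0.11) or the untreated sample of number 1 (0.52 and 0.31). Of 50 mean levels under other settings 3 moved beyond the spread between samples: obshuman10K#11004 to 0.75 with runs of spots centred, against 0.45, and obshumcontrol#11009 to 4.18 on letter A and 3.79 on letter B, against 3.98. A fit of the compared groups alone does not apply to the interaction and the averaged contrasts. With 2 samples per treatment, differences of the size seen between numbers limit what can be called.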
